A study of Mus musculus with 8 samples.

Results

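The genes described here are 40 mouse genes of the hypoxia-inducible factor (HIF) pathway and of glycolysis. They were chosen by name: every spot that is not a control and whose gene symbol, on the array or in the platform's annotation, is one of the 40 was taken, with Pkm also accepted as Pkm2. All 40 were on the array, with 78 of its 41174 probes, and 25 of them are glycolytic enzymes, transporters and their switches while 15 are HIF subunits, oxygen sensors and HIF targets. Messenger RNA was measured on 1-colour Agilent arrays in 4 samples of CT26-FL3 and 4 samples of CT26. CT26 is a colon carcinoma line of BALB/c mice that seldom spreads to the liver, and CT26-FL3 was derived from it by 3 rounds of growth in the liver and spreads there often. The CT26-FL3 cells came from liver lesions dissociated with collagenase, DNase and hyaluronidase and were kept in culture for a short time to lose stromal cells, per the labels' protocols. Both lines were grown in medium with 4.5 g/L glucose and 10% serum under 5% CO2 at 37 °C, with no oxygen tension given in the labels. No gene was altered and no agent was added in either line. Because there is 1 selected line and 1 parent, liver selection and any other difference in the lines' histories cannot be told apart.

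HIF is a transcription factor made of an oxygen-sensitive alpha subunit (Hif1a or Epas1) and a stable partner, Arnt. When oxygen is present, prolyl hydroxylases of the Egln family mark the alpha subunit for destruction, so much of the control lies on the protein, which an array of messenger RNA does not measure. HIF raises the transcription of genes for glucose uptake, glycolysis, lactate export, mitochondrial turnover and matrix modification. Tumour cells are known to run glycolysis and secrete lactate even where oxygen is present.

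Values below are log2 levels relative to the 75th percentile of the same array, so 0 equals that percentile and each unit is a doubling of the signal. They compare a gene with itself between samples and not with another gene, since probes differ in brightness. Changes are CT26-FL3 over CT26 on the log2 scale with their standard error (SE) and 4 samples per line, and p-values are limma's, adjusted by Benjamini-Hochberg over all 15097 genes tested, with a threshold of 0.05 (for a gene's further probes, over all 23068 kept probes). Values on single arrays are listed in the order of replicates 1 to 4. The labels call the samples independent without naming separate cultures, so these p-values may measure a technical spread.

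In CT26-FL3 the hexokinases Hk1 and Hk2 and the phosphofructokinase subunits Pfkl and Pfkp were higher, and the subunit Pfkm was lower. The HIF subunit Epas1 (on 1 probe, named so only in the annotation) and 6 of 9 HIF targets outside glycolysis were also higher. The glucose transporter Slc2a1, the lactate dehydrogenase Ldha and Hif1a itself did not pass the threshold. Of the 40 genes, 38 could be tested: 19 were higher in CT26-FL3, 7 were lower and 12 did not pass. That is 68.4% called, while 49.5% of all genes tested were called in this comparison. The 40 genes were chosen with earlier results of these data known. All 38 were above the detection limit on all 8 arrays, as were 13656 of the 15097 genes tested. Higher calls made up 50% of the 38 genes against 24.1% of all genes, and lower calls made up 18.4% against 25.3%. The median change was 0.14 over the 38 genes and -0.01 over all genes, and the median absolute change was 0.27 against 0.21. The 4 CT26-FL3 arrays did not overlap with the 4 CT26 arrays for 26 of the 38 genes, against 47.4% of all genes.

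Most changes were small. Only 2 of the 38 genes, Ankrd37 and Stc1, changed by 2-fold or more, and the dim Stc1 fell short of it where a constant of 50 was added before log2 (log2 change 0.80). At a called change of at least 0.5, there were 6 higher genes (8.73% of all genes passed that limit upwards) and 3 lower genes (7.76% downwards). Among the 23 glycolytic genes tested 11 (47.8%) were higher, 3 (13%) were lower and 9 did not pass (median change 0.13). Among the 15 HIF genes 8 (53.3%) were higher, 4 (26.7%) were lower and 3 did not pass (median change 0.25). Of all genes tested 24.1% were higher and 25.3% were lower. The share of lower HIF genes was thus near that of all genes. The 12 genes that did not pass had absolute changes between 0.02 and 0.13, and SEs over all 38 genes ran between 0.04 and 0.14. In cultured cells measured in bulk, fewer cells with a transcript and less of it in each cell cannot be told apart.

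**Figure D1:**
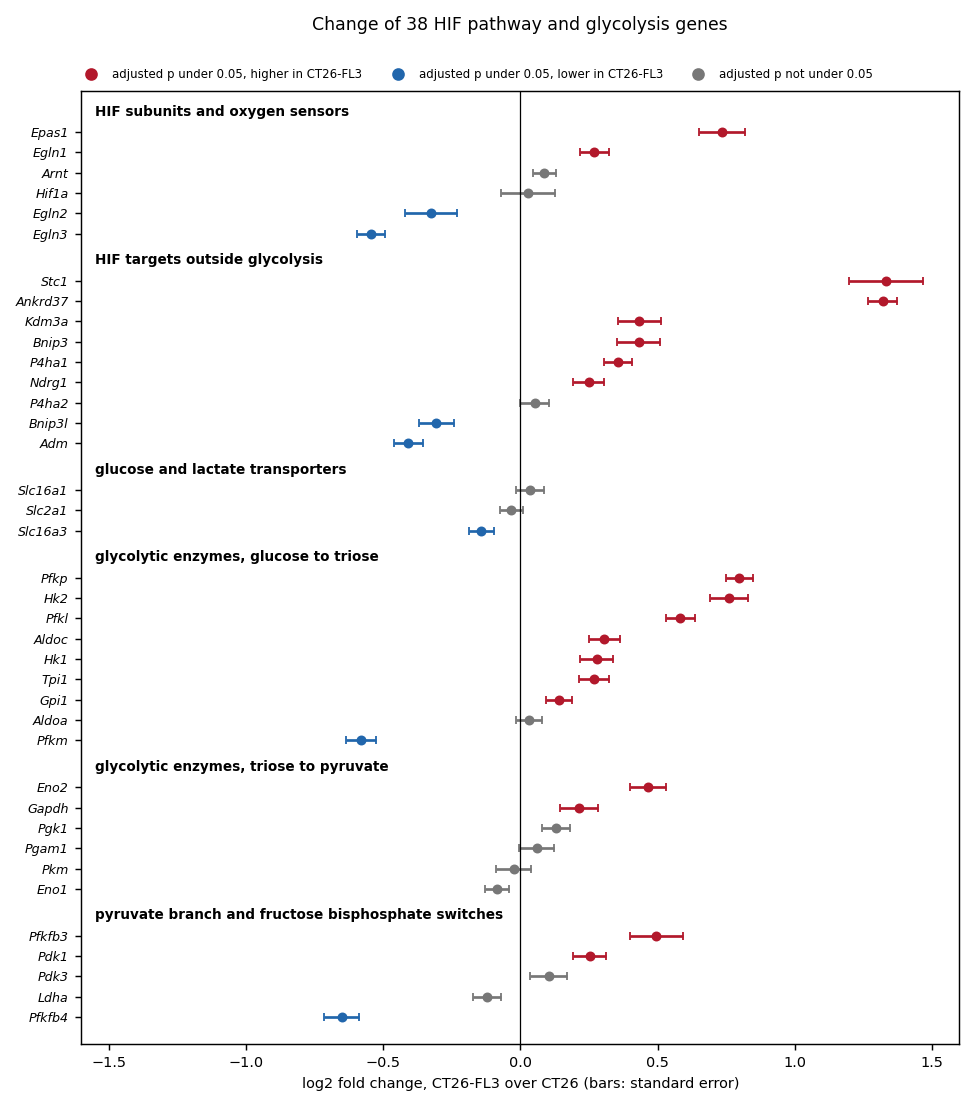
Change of each of the 38 tested genes, in groups by role. Points are the log2 fold change of CT26-FL3 over CT26, bars are the SE (4 samples per line), red marks an adjusted p under 0.05 with the higher level in CT26-FL3, blue one with the lower level in CT26-FL3 and grey an adjusted p not under 0.05. The points of Stc1 (1.33) and Ankrd37 (1.32) lie farthest to the right and that of Pfkfb4 (-0.65) farthest to the left.

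HIF binds DNA at the core of the hypoxia response element. The letters ACGTG are a form of that core, and other forms such as GCGTG were not searched. RefSeq promoter windows of the GRCm38.p6 assembly, which run from 250 bases before a transcription start to 50 bases after it, were found for 35 of the 40 genes and not for Bnip3l, Epas1, Ndrg1, Slc2a3 or Stc1. The letters ACGTG, searched on both strands (on the other strand they read CACGT), stood in at least 1 window of 23 of the 35 genes (65.7%). Over all tested genes with a window the share was 28.4%, and over all genes with a window it was 21.8%. Some genes have more than 1 window. Counted by window, 51.0% of the 51 windows of these genes held the letters, against 19.6% of the 32851 windows of all genes. The letters CACGTG, which contain ACGTG on both strands and are counted in it, stood in 7 of the 35 genes (20%, against 11.3% of tested genes). By outcome, ACGTG stood in 9 of 16 genes that were higher in CT26-FL3, 4 of 6 that were lower and 10 of 12 that did not pass, so genes with and without a called change both held it. The windows' median GC content was 62.3% for the 35 genes and 60.3% for tested genes. A match is a description of the sequence and not a bound site.

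Promoter windows of 5 genes are printed because these genes carry the contrasts described below: Ankrd37, the target with the second-largest rise, Hk2 and Pfkp, the enzymes with the largest rises on the brightest probe, Egln3, the oxygen sensor with the largest fall, and Ldha, which held the most matches and did not pass. Matches to ACGTG on either strand are in capitals. Each is written 5′ to 3′ along the gene.
Ankrd37 (chr8:45999801-46000100, minus strand): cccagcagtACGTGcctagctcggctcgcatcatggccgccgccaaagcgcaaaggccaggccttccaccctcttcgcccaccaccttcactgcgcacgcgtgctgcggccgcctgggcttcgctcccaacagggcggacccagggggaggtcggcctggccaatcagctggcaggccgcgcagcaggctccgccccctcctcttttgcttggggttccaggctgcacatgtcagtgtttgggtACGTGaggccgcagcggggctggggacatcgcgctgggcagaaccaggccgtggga
Hk2 (chr6:82774405-82774704, minus strand): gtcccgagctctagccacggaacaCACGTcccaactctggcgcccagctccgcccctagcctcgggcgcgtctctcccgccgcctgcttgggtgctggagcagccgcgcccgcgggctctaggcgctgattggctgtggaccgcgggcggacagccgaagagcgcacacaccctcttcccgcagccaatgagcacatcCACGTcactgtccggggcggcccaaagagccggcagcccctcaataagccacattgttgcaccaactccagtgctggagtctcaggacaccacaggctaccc
Pfkp (chr13:6648722-6649021, minus strand): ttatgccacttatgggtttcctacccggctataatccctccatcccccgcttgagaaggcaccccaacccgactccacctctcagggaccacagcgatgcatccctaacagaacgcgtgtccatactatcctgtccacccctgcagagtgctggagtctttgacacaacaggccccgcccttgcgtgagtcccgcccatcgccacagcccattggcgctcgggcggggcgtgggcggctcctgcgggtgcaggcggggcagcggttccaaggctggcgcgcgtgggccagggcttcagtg
Egln3 (chr12:54203825-54204124, minus strand): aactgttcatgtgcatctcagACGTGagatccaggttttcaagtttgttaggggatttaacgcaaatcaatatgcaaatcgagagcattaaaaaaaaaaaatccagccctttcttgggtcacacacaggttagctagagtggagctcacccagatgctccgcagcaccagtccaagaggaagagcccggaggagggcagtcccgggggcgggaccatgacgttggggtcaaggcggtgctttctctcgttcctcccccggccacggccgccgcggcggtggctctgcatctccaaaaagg
Ldha (chr7:46845554-46845853, plus strand): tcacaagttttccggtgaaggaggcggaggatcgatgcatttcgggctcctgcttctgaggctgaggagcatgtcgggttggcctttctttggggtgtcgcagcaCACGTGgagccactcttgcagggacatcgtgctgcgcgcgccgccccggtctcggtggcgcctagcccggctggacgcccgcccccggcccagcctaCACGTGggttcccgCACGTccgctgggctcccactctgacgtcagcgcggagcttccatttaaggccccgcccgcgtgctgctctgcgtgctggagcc
Relative to the transcription start, the matches begin at -241 and -6 in Ankrd37, at -226 and -52 in Hk2, and at -229 in Egln3. In Ldha they begin at -145, -144, -48, -47 and -34, the neighbouring positions being CACGTG read on both strands, and a second Ldha window held none. The Pfkp window held none, which says only that these letters are not in it.

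The alpha subunits differed in outcome. Hif1a, which encodes the alpha subunit present in most cell types, had log2 levels of 1.98, 2.00, 1.98 and 2.02 in CT26-FL3, against 1.83, 2.22, 1.75 and 2.06 in CT26. The CT26-FL3 arrays lay within the range of the CT26 arrays, and the change was 0.03 (SE 0.10, adjusted p = 0.836). Epas1, the alpha subunit first known from endothelium, had -1.30, -0.88, -1.05 and -1.0 in CT26-FL3, against -1.74, -1.78, -1.84 and -1.80 in CT26. Every CT26-FL3 array was above every CT26 array, with a rise of 0.74 (SE 0.08, adjusted p = 0.000128). The Epas1 value rests on 1 probe that carries a cluster name on the array and the symbol only in the annotation, and the 2 probes named Epas1 on the array were above the detection limit on no array. Arnt, the shared partner, had -0.54, -0.62, -0.56 and -0.50 in CT26-FL3, against -0.66, -0.66, -0.61 and -0.64 in CT26. Its lines overlapped and its change of 0.09 (SE 0.04) did not pass (adjusted p = 0.122), although with the mean of its 3 kept probes the change was 0.13 (adjusted p = 0.0279).

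The 3 prolyl hydroxylases that sense oxygen moved in both directions. Egln1, the main hydroxylase of the alpha subunits in normal oxygen, had log2 levels of 0.69, 0.71, 0.77 and 0.61 in CT26-FL3, against 0.48, 0.33, 0.43 and 0.45 in CT26. It rose by 0.27 (SE 0.05, adjusted p = 0.00288) with no overlap between the lines, and a second kept probe gave 0.25. Egln3, itself a HIF target, had -0.77, -0.60, -0.65 and -0.59 in CT26-FL3, against -0.06, -0.13, -0.13 and -0.10 in CT26. All CT26-FL3 arrays were lower than all CT26 arrays, and Egln3 fell by 0.55 (SE 0.05, adjusted p = 4.21e-05).

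Egln2, the remaining hydroxylase, had log2 levels of 2.20, 2.31, 2.30 and 2.31 in CT26-FL3, against 2.77, 2.34, 2.77 and 2.55 in CT26. The lines were separated by a narrow gap, since CT26 replicate 2 lay close to the CT26-FL3 arrays. Egln2 fell by 0.33 (SE 0.09, adjusted p = 0.0199). Leaving out CT26-FL3 replicate 1 ended the call (change -0.30, adjusted p = 0.0523), as did leaving out CT26 replicate 1 (change -0.27, adjusted p = 0.0524) or CT26 replicate 3 (change -0.27, adjusted p = 0.0516).

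Among the 9 HIF targets outside glycolysis 6 (66.7%) were higher in CT26-FL3 and 2 (22.2%) were lower, against 24.1% and 25.3% of all genes. P4ha2 did not pass, and the median change of the 9 was 0.36. The largest rises were those of Stc1 and Ankrd37. Stc1 encodes stanniocalcin, a secreted glycoprotein linked to calcium and phosphate handling. It had log2 levels of -3.14, -2.80, -2.97 and -3.01 in CT26-FL3, against -4.20, -3.97, -4.54 and -4.54 in CT26, so the lines were far apart on a probe that is dim in both. The rise was 1.33, or 2.52-fold (SE 0.14, adjusted p = 6.41e-05). Its other 2 kept probes were above the limit on all CT26-FL3 arrays but on only 1 CT26 array each. They passed the filter through CT26-FL3, so the size of the rise is not measured on them. Ankrd37, an ankyrin repeat protein gene known as a direct HIF target, had 1.96, 2.05, 2.01 and 1.95 in CT26-FL3, against 0.61, 0.63, 0.65 and 0.79 in CT26. Its arrays clustered tightly within each line, and the rise was 1.32, or 2.50-fold (SE 0.05, adjusted p = 2.57e-07). The promoter window of Ankrd37 printed above holds 2 matches to ACGTG.

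The other HIF targets changed less. Kdm3a, a demethylase of histone H3, rose by 0.43 (SE 0.08, adjusted p = 0.00186), and its arrays ran between 1.16 and 1.46 in CT26-FL3 and between 0.84 and 1.06 in CT26. P4ha1, a catalytic subunit of collagen prolyl hydroxylase, rose by 0.36 (SE 0.05, adjusted p = 0.000542), whereas its relative P4ha2 changed by 0.05 (adjusted p = 0.456). Ndrg1, a stress-response gene often used as a hypoxia marker, rose by 0.25 (SE 0.06, adjusted p = 0.00627). The mitophagy receptors Bnip3 and Bnip3l, which tag mitochondria for removal, went opposite ways. Bnip3 rose by 0.43 (SE 0.08, adjusted p = 0.00175), with arrays between 3.25 and 3.47 in CT26-FL3 and between 2.83 and 3.09 in CT26. Bnip3l fell by 0.31 (SE 0.06, adjusted p = 0.00401), and both of its kept probes were lower. Adm, which encodes the vasodilator peptide adrenomedullin, fell by 0.41 (SE 0.05, adjusted p = 0.000276), with arrays between -0.96 and -0.85 in CT26-FL3 and between -0.57 and -0.39 in CT26.

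**Figure D2:**
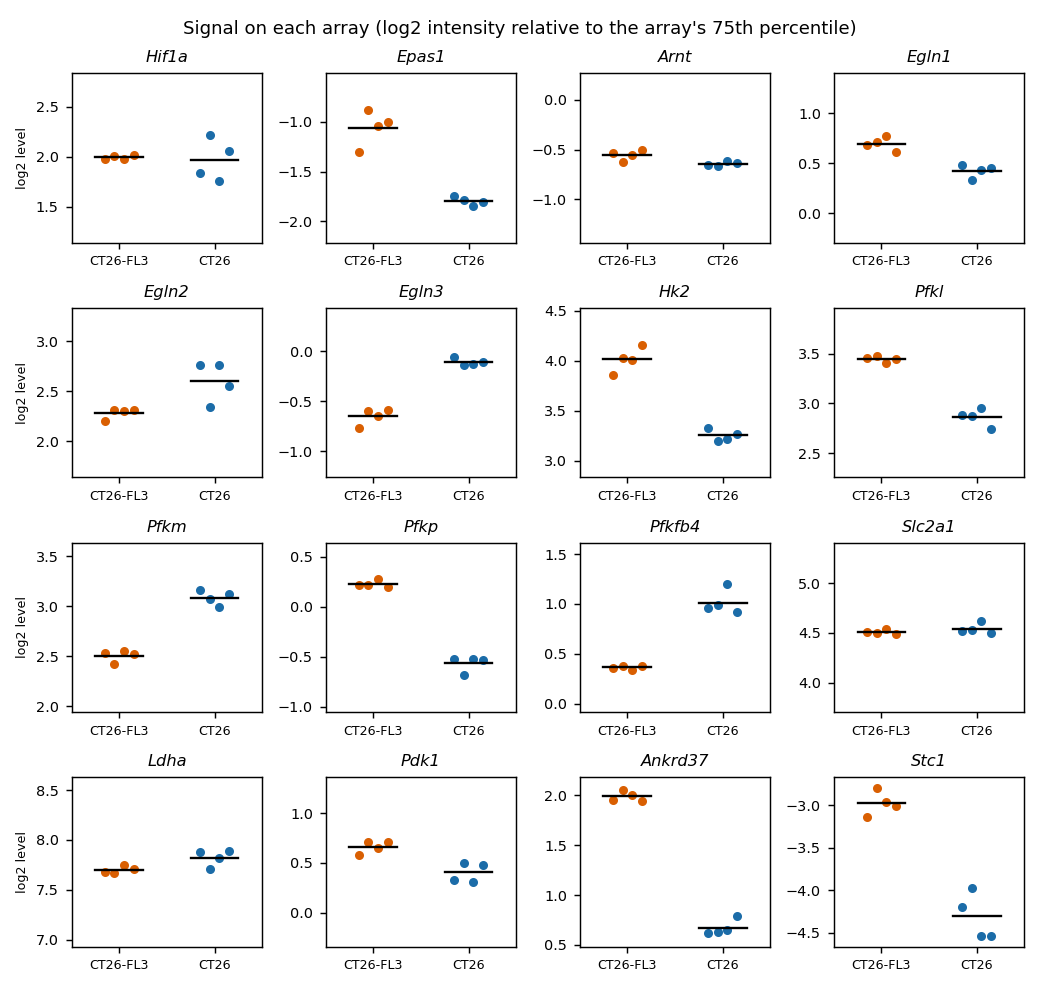
Log2 level of 16 genes on each array, relative to the array's 75th percentile, with 4 CT26-FL3 arrays on the left (orange) and 4 CT26 arrays on the right (blue) of each panel. Horizontal bars are line means, and the panels share a vertical span except where a gene needed more room. The lines overlap for Hif1a, Arnt, Slc2a1 and Ldha and lie apart for the other 12 genes.

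Of the 3 tested genes for glucose and lactate transport across the cell membrane 1 was lower in CT26-FL3 (25.3% of all genes were lower). The other 2 did not pass, and the median change of the 3 was -0.03. Slc2a1 encodes the main glucose transporter of many tumour cells and is a textbook HIF target. It had log2 levels of 4.51, 4.50, 4.54 and 4.49 in CT26-FL3, against 4.51, 4.53, 4.62 and 4.50 in CT26. The arrays of the lines were interleaved, and the change was -0.03 (SE 0.04, adjusted p = 0.567). Slc2a3, another glucose transporter, was above the limit on no array with any of its 3 probes and was not tested. Slc16a1, a transporter that carries lactate and pyruvate in either direction, changed by 0.04 (SE 0.05, adjusted p = 0.592). Slc16a3, the lactate exporter of glycolytic cells and a HIF target, fell by 0.14 (SE 0.05, adjusted p = 0.0301), with arrays between 2.59 and 2.66 in CT26-FL3 and between 2.68 and 2.82 in CT26. That small fall lost its call without any one of CT26-FL3 replicates 1, 3 and 4 or CT26 replicates 1, 2 and 4 (changes -0.12 to -0.14, adjusted p between 0.0607 and 0.0807).

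Of the 9 enzymes that carry glucose to triose phosphate 7 were higher in CT26-FL3 on their brightest probe (24.1% of all genes were higher), Pfkm was lower and Aldoa did not pass, with a median change of 0.28. With the mean of each gene's kept probes 4 of the 9 were higher (Hk1, Hk2, Pfkl and Pfkp), 1 was lower, and Aldoc, Tpi1 and Gpi1 no longer passed. Hk2 encodes the inducible hexokinase, the enzyme that traps glucose in the cell. It had log2 levels of 3.86, 4.03, 4.01 and 4.16 in CT26-FL3, against 3.33, 3.20, 3.22 and 3.27 in CT26. All CT26-FL3 arrays were higher, and the rise was 0.76, or 1.69-fold (SE 0.07, adjusted p = 3.08e-05). Hk1, the hexokinase found in most tissues, rose by 0.28 (SE 0.06, adjusted p = 0.00539), and its 5 kept probes gave changes between 0.17 and 0.35.

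Phosphofructokinase, the committed step of glycolysis, is a tetramer built of platelet-type (Pfkp), liver-type (Pfkl) and muscle-type (Pfkm) subunits. Pfkp had log2 levels of 0.22, 0.22, 0.28 and 0.20 in CT26-FL3, against -0.53, -0.69, -0.53 and -0.54 in CT26. The lines were well separated and Pfkp rose by 0.80, or 1.74-fold (SE 0.05, adjusted p = 3.67e-06), on its brightest probe. Its other kept probes gave changes of 0.46 and 0.26, of which the second did not pass (adjusted p = 0.0889). Both were dim, with CT26 means of -4.50 and -5.47 against -0.57 on the brightest probe, and the second was above the limit on 3 CT26 arrays. The mean of the 3 gave 0.51, below the single-probe rises of Hk2 and Pfkl, which have no such dim probes. Pfkl had 3.46, 3.47, 3.40 and 3.45 in CT26-FL3, against 2.88, 2.87, 2.95 and 2.74 in CT26. It rose by 0.58 (SE 0.05, adjusted p = 3.38e-05), again with no overlap. Pfkm went the other way, with 2.54, 2.42, 2.55 and 2.52 in CT26-FL3, against 3.16, 3.07, 2.99 and 3.12 in CT26. Every CT26-FL3 array was below every CT26 array, and Pfkm fell by 0.58 (SE 0.05, adjusted p = 3.68e-05).

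The remaining enzymes of the upper part changed by 0.31 or less. Aldoc, the brain-type aldolase, which splits the bisphosphate sugar, rose by 0.31 (SE 0.06, adjusted p = 0.00203). A second kept probe, dimmer with a CT26 mean of -3.95 against -0.35, gave -0.21 (adjusted p = 0.141). The mean of both gave 0.05 (adjusted p = 0.610). Aldoa, the aldolase of muscle and most other cells, changed by 0.03 (SE 0.05, adjusted p = 0.610). Tpi1, the triose phosphate isomerase, rose by 0.27 (SE 0.05, adjusted p = 0.00363) on the probe annotated to its RefSeq transcript. Another probe, named Tpi1 only in the annotation, fell by 0.39 (SE 0.09, adjusted p = 0.00581). It was far dimmer, with means of -3.08 in CT26-FL3 and -2.69 in CT26, against 6.95 and 6.68 on the RefSeq probe. The mean of both probes gave -0.06 (adjusted p = 0.276), so the direction for Tpi1 depends on the probe.

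Gpi1, which turns glucose phosphate into fructose phosphate, rose by 0.14 (SE 0.05, adjusted p = 0.0351), with 7.16, 7.27, 7.29 and 7.20 in CT26-FL3, against 7.15, 7.07, 7.07 and 7.07 in CT26. Its lines were separated by a very narrow gap. Its main probe was printed on 10 spots of each array, whose log2 SD within an array was 0.04 to 0.10. The call was lost without any one of CT26-FL3 replicates 2, 3 and 4 or CT26 replicates 2, 3 and 4 (changes 0.12 to 0.15, adjusted p between 0.0539 and 0.0909), and the mean with a second, dim probe gave -0.11 (adjusted p = 0.595).

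From triose phosphate to pyruvate the enzymes changed little: 2 of 6 (33.3%) were higher in CT26-FL3, against 24.1% of all genes. The other 4 did not pass, and the median change of the 6 was 0.10. Eno2, the neuron-type enolase, rose by 0.47 (SE 0.07, adjusted p = 0.000458), with arrays between 1.43 and 1.47 in CT26-FL3 and between 0.85 and 1.16 in CT26, and a second kept probe gave 0.45. Gapdh, the dehydrogenase that begins the energy-yielding steps, rose by 0.21 (SE 0.07, adjusted p = 0.0285) on its brightest probe, and the lines overlapped there. That probe and another with a change of 0.30 carry other names on the array, while the probe named Gapdh gave 0.00 (adjusted p = 0.985). The probe named Gapdh was far dimmer, with means of -3.06 in CT26-FL3 and -3.07 in CT26, against 7.62 and 7.41 on the brightest probe. Gapdh has many near-identical copies in the mouse genome, and their part in the disagreement between probes was not tested. The call was also lost without any one of CT26-FL3 replicates 1, 2 and 3 or CT26 replicates 2 and 3 (changes 0.17 to 0.21, adjusted p between 0.0628 and 0.0741).

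The other enzymes of these steps did not pass. Pgk1, which yields the first ATP of the pathway, changed by 0.13 (SE 0.05, adjusted p = 0.0651) although its lines did not overlap, with 7.41 to 7.53 in CT26-FL3 and 7.25 to 7.40 in CT26. Pgam1, the mutase of the next step, changed by 0.06 (SE 0.06, adjusted p = 0.474). Eno1, the enolase of most tissues, changed by -0.08 (SE 0.04, adjusted p = 0.151). It has a near-identical mouse copy, Eno1b, whose signal its probe may share. Pkm, the pyruvate kinase of most tissues and tumours, changed by -0.02 (SE 0.06, adjusted p = 0.783), and its other kept probes gave -0.09 and -0.38, neither past the threshold.

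**Figure D3:**
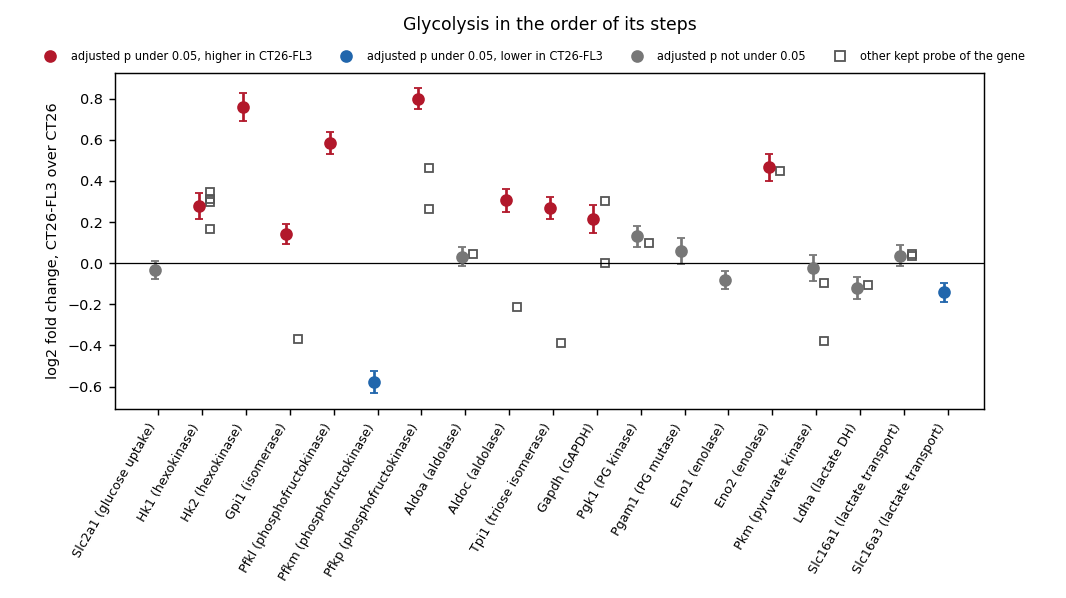
Log2 fold change of CT26-FL3 over CT26 for the 19 tested transporters and enzymes in the order of the pathway. Filled points with SE bars (4 samples per line) are the probe that stands for the gene (red, adjusted p under 0.05 and higher in CT26-FL3; blue, adjusted p under 0.05 and lower; grey, not under 0.05), and open squares are other kept probes of the same gene. Hk2 (0.76), Pfkl (0.58) and Pfkp (0.80) stand above the other points, Pfkm (-0.58) stands below them, and open squares lie on the other side of 0 from the filled point for Gpi1, Aldoc and Tpi1.

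Enzymes that steer the flow around phosphofructokinase and pyruvate were split. Pfkfb3 and Pfkfb4 encode bifunctional enzymes that make or remove the fructose bisphosphate that activates phosphofructokinase, and both are known HIF targets. Pfkfb3, the form with the strongest kinase side, rose by 0.50 (SE 0.10, adjusted p = 0.00291), with -2.60, -2.68, -3.01 and -2.90 in CT26-FL3, against -3.21, -3.22, -3.31 and -3.43 in CT26. It rests on 1 of 3 probes, since the other 2 were above the limit on no array. Pfkfb4 had 0.36, 0.38, 0.33 and 0.38 in CT26-FL3, against 0.96, 0.99, 1.20 and 0.91 in CT26. The lines did not overlap, and Pfkfb4 fell by 0.65 (SE 0.06, adjusted p = 5.68e-05), the largest fall of the 38 genes.

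At the pyruvate branch, Ldha encodes the lactate dehydrogenase subunit that favours lactate. It had log2 levels of 7.68, 7.67, 7.74 and 7.71 in CT26-FL3, against 7.88, 7.71, 7.82 and 7.89 in CT26. The lines overlapped at CT26 replicate 2, and the change of -0.12 (SE 0.05) did not pass (adjusted p = 0.0862). Without CT26 replicate 2 it passed as a fall (-0.16, adjusted p = 0.0209), as it did in the authors' deposited log2 values (-0.16, adjusted p = 0.0120) and after quantile normalization (-0.14, adjusted p = 0.0406). Ldhb, the other common subunit, was above the limit on 2 CT26-FL3 arrays and no CT26 array and was not tested. Pdk1, a kinase that blocks entry of pyruvate into the mitochondrial cycle, had 0.57, 0.71, 0.65 and 0.71 in CT26-FL3, against 0.33, 0.50, 0.31 and 0.47 in CT26. The lines were separated, and Pdk1 rose by 0.25 (SE 0.06, adjusted p = 0.00764). Pdk3, a kinase of the same family, changed by 0.10 (SE 0.07, adjusted p = 0.235).

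Whether related genes changed unequally was tested within arrays, by taking the log2 difference of the 2 genes on each array and comparing the 4 CT26-FL3 with the 4 CT26 arrays. Of 14 pairs, 12 had both genes measured. With 4 against 4 arrays there are 70 ways to split them, so the exact two-sided permutation test cannot give a p below 0.0286. That value was reached by 11 pairs, in which the lines did not overlap (0.0312 after adjustment over the 12 pairs). The pairs were chosen with earlier results of these data known, and they use the same values as the changes above. The share over other pairs of genes was not computed, so the count of 11 only describes these pairs. For single genes, the lines did not overlap in 47.4% of all genes tested.

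The widest of these differences was between phosphofructokinase subunits, where Pfkp minus Pfkm was higher in CT26-FL3 by 1.38 (SE 0.06). Pfkp minus Pfkl was higher by 0.22 (SE 0.07), but with the mean of each gene's probes it was -0.07. Among alpha subunits, Epas1 minus Hif1a was higher by 0.71 (SE 0.13), with Epas1 on 1 probe that is named so only in the annotation. The inducible hexokinase moved more than the common one, with Hk2 minus Hk1 higher by 0.48 (SE 0.08), and Eno2 minus Eno1 was higher by 0.55 (SE 0.07). Aldoc minus Aldoa was higher by 0.27 (SE 0.05) on the brightest probes and by 0.01 with the mean of probes.

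In the other direction, Pfkfb4 minus Pfkfb3 was lower in CT26-FL3, with a difference of -1.15 (SE 0.12). The oxygen sensors followed with Egln3 minus Egln1 at -0.81 (SE 0.06), and the mitophagy receptors with Bnip3l minus Bnip3 at -0.74 (SE 0.09). P4ha2 minus P4ha1 was at -0.30 (SE 0.08). Slc16a3 minus Slc16a1 was at -0.18 (SE 0.05), with -0.26 in replicates 1 and 2 alone and -0.10 in replicates 3 and 4 alone. The pair that overlapped was Pdk3 minus Pdk1 (-0.15, SE 0.07, exact permutation p = 0.0857).

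**Figure D4:**
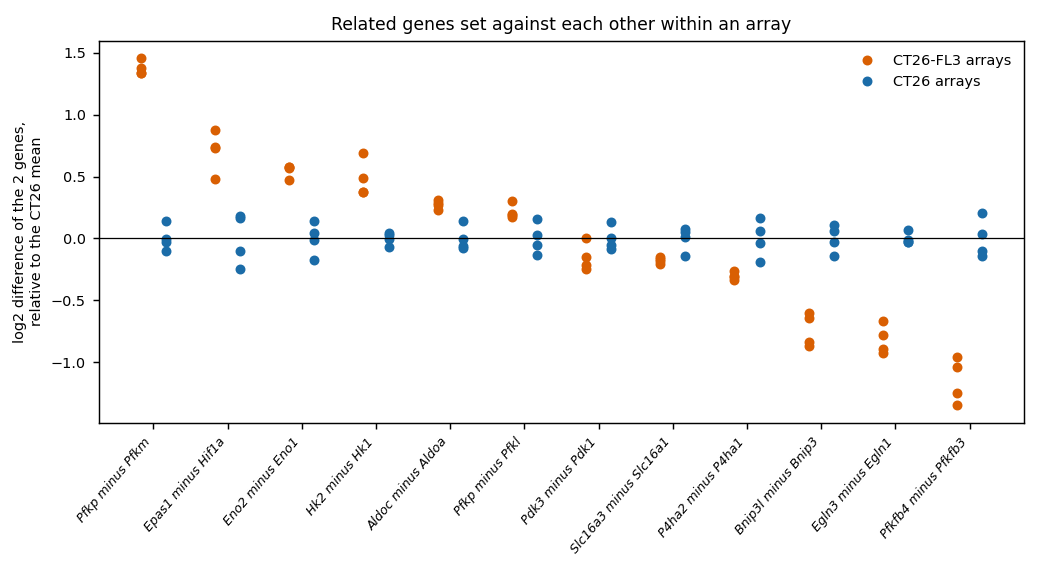
Log2 difference of 2 related genes on each array, relative to the mean of the 4 CT26 arrays, for the 12 pairs measured. Orange points are the 4 CT26-FL3 arrays and blue points beside them the 4 CT26 arrays. The CT26-FL3 points lie highest for Pfkp minus Pfkm (mean 1.38) and lowest for Pfkfb4 minus Pfkfb3 (mean -1.15), and only Pdk3 minus Pdk1 overlaps.

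Wider lists written from textbook membership gave a mixed picture. Of 53 further genes of glycolysis, pyruvate entry, the pentose phosphate branch and glucose storage, 40 were tested, with 7 (17.5%) higher in CT26-FL3 and 12 (30%) lower, against 24.1% and 25.3% of all genes. The share called, 47.5%, was near the 49.5% of all genes, and the median change was -0.06. The hexose transporter family gene Slc2a6 fell by 1.75 (SE 0.09), Bpgm, which diverts a glycolytic intermediate, fell by 0.74 (SE 0.05, on 3 CT26 arrays since 1 spot had failed), the mitochondrial pyruvate carrier subunit Mpc1 fell by 0.71 (SE 0.06) and the muscle enolase Eno3 fell by 0.62 (SE 0.05). The hexokinase Hk3 rose by 1.36 (SE 0.14) and Txnip, a restrainer of glucose uptake, rose by 0.97 (SE 0.05). Adjusted p-values of these 6 genes were 6.81e-05 for Hk3 and lower for the others. When arrays were scaled by their median, the split in this list was 8 higher and 6 lower.

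Of 22 further regulators of HIF 21 were tested, with 2 higher, 5 lower and a median change of 0.06. The share called was 33.3%, against 49.5% of all genes. Siah1a, a ubiquitin ligase that acts on the hydroxylases, rose by 0.47 (SE 0.08). The lower ones named by size were Usp20, a deubiquitinase of the alpha subunit, with a change of -0.47 (SE 0.06), Cited2, a competitor of HIF for its coactivator, with -0.43 (SE 0.06), and Rbx1 of the ubiquitin ligase complex that destroys the alpha subunit, with -0.34 (SE 0.06). Kdm4c, a histone demethylase known from human cells as a HIF coactivator, rose by 0.33 (SE 0.07), and Cul2, the scaffold of the same ligase complex, fell by 0.29 (SE 0.07). Adjusted p-values of these 6 ran up to 0.00963, and with the mean of its probes Cul2 gave -0.08 and no longer passed.

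Of 46 further HIF targets 41 were tested, with 20 (48.8%) higher and 14 (34.1%) lower, against 24.1% and 25.3% of all genes, and a median change of 0.14. The carbonic anhydrases Car9 and Car12, which control acid at the cell surface, rose by 2.98 (SE 0.07) and 1.74 (SE 0.08). The nuclear receptor gene Rora and the mitochondrial adenylate kinase gene Ak4 were above the limit on no CT26-FL3 array and all 4 CT26 arrays, which bounds them as at least 4.29-fold and at least 2.37-fold lower in CT26-FL3. Ak3, of the same kinase family, fell by 1.81 (SE 0.07). Adjusted p-values of these 5 genes ran up to 0.000161. The lysyl oxidase family gene Loxl2 was lower in CT26-FL3 (adjusted p = 0.00211), but it was above the limit on 1 CT26-FL3 array, against 4 CT26 arrays, so the size of its fall is not measured.

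Arrays were correlated across the tested genes that had a value on every array, each by its brightest kept probe. Arrays of CT26-FL3 correlated with each other at r from 0.997 to 0.998 and arrays of CT26 at 0.996 to 0.998. For arrays of different lines r was 0.982 to 0.984 (across genes, which are not independent replicates). Between 52.8% and 58.2% of probes were above the limit. Of 14 markers of the colon epithelium, 6 (Epcam, Cdh1, Krt19, Vil1, Cdx1 and Lgr5) were above the limit on no array. Another 6 (Krt8, Krt18, Krt20, Cdx2, Cdh17 and Cldn3) were above it on every array of both lines. Muc2 and Cldn7 were above it on too few arrays to be tested. Of the 6 tested markers, 5 were higher in CT26-FL3: Krt8 (2.23), Krt18 (1.56), Cdh17 (1.51), Cdx2 (1.07) and Krt20 (0.63). Cldn3 did not pass (-0.01). The summed level of the 14 markers, in units of the 75th percentile, was 3.59 to 3.89 in CT26-FL3 and 1.79 to 1.87 in CT26. Of 8 tested fibroblast markers 5 were lower in CT26-FL3 (among them Col1a1, -0.76, and Col3a1, -0.56), Dcn (3.32) and Fap (0.93) were higher, and Col1a2, which carries most of the sum, did not pass. Their sums were 253 to 274 in CT26-FL3 and 249 to 291 in CT26. Those for leukocyte markers were 1.07 to 1.17 in CT26-FL3 and 0.808 to 0.950 in CT26. Endothelial markers summed to 0.575 to 0.668 in CT26-FL3 and 0.498 to 0.538 in CT26, and hepatocyte markers to 0.200 to 0.214 in CT26-FL3 and 0.178 to 0.215 in CT26. The defining genes Ptprc and Adgre1 of leukocytes, Pecam1 and Cdh5 of endothelium and Alb of hepatocytes were above the limit on no array. The part of these markers in the changes above was not tested.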

How the data were processed

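Total RNA (500 ng per sample, RNA integrity numbers 8 to 10 per the labels) was labelled with Cy3 and hybridised to 8 arrays, 4 of CT26-FL3 and 4 of CT26. The submitters' processing notes name Agilent Feature Extraction without a version. The authors deposited a table per array with each spot's intensity, its background and a standard deviation. Background had been subtracted from the deposited intensity, judging by medians of 2.23 to 7.43 over negative controls beside 21.1 to 24.4 in the background column. The tables do not have the processed signal and flag columns that the planned fit named, so this intensity, a limit per array and the mark for failed spots were used in their place. The authors also deposited log2 values per probe, centred on each probe's median, which served as an alternative, their normalization being not given in the sources used here. Of the 45018 spots per array, 1639 controls and 3 to 76 failed gene spots were left out, spots of a probe were averaged as log2 values, and each array's 75th percentile (808 to 1151 intensity units) was subtracted. For the limit, the median standard deviation of the array's 153 negative control spots was multiplied by 2.6 (16.9 to 23.2). Highest intensities were 629766 to 728713, and saturation of bright probes was not tested. Probes above the limit on at least 4 of 8 arrays were kept (23068), and the brightest kept probe stood for its gene. The number of arrays limits the precision.

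Symbols came from the platform annotation, brought up to date through RefSeq gene identifiers (GRCm38.p6) for 32524 probes and kept as annotated for 140. Another 814 probes were named by accession, 7651 kept the array's name and 45 with several genes the probe's. The 40 genes, the wider lists, the pairs and the markers were chosen with earlier results of these data known. Values on every array were given for genes above the limit on all 8 arrays that passed with a change of at least 0.5, and for the HIF subunits, oxygen sensors, Slc2a1, Ldha and Pdk1 whatever their result. A few more were added after their values were seen (Pfkfb3 and Gpi1). From each wider list at most 6 called genes were named, those that changed most. CT26-FL3 was set against CT26 by limma's lmFit and eBayes (version 3.58.1, R 4.3.3, two-sided, no block) over all 15097 genes with Benjamini-Hochberg adjustment, after the script had been tested on simulated data. Replicate numbers are those of the sample names; the titles number CT26-FL3 differently.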

Additional observations from a re-analysis of the deposited data

Results flagged for a closer look

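In 76 sets of 4 arrays (each tested gene in each line) the highest or lowest array was compared with the other 3, and it lay apart in 4 of them. Its gap to the nearest array took up more of the set's range than Dixon's test allows, which chance produces in about 1 of 20 sets. For Egln2, CT26-FL3 replicate 1 read 2.20 while the other CT26-FL3 arrays read 2.30 to 2.31. For Gpi1, CT26 replicate 1 read 7.15 while the other CT26 arrays read 7.07. For Pfkp, CT26 replicate 2 read -0.69 and the others -0.54 to -0.53. For Kdm3a, CT26 replicate 2 read 1.06 and the others 0.84 to 0.86. Without that array Egln2 no longer passed the threshold (change -0.30, adjusted p = 0.0523), while Gpi1, Pfkp and Kdm3a kept their call.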

How the results depend on the processing

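Across 21 alternatives and 38 genes (798 results), 736 kept their direction and side of the threshold, 55 lost the call, 5 gained one and 2 reversed. Of the 26 called genes 14 were called in every alternative: Adm, Ankrd37, Bnip3, Egln3, Eno2, Epas1, Hk2, Kdm3a, Pfkfb3, Pfkfb4, Pfkl, Pfkm, Pfkp and Stc1. The call was lost most often for Gpi1 (14 alternatives, the reversal included), Slc16a3 (12), Gapdh (9) and Egln2 (7). With the mean of a gene's kept probes in place of the brightest, the values of Gpi1 (-0.114), Tpi1 (-0.0597) and the pair Pfkp minus Pfkl (-0.0745) reversed, since their second probes point the other way or rose less.

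Within replicates 1 and 2 alone, 4205 of all genes were called, with 15 of the 38 genes, 7 glycolytic ones, 38 in the wider lists together, 9 of further glycolysis and 4 further regulators. Within replicates 3 and 4 these were 4183 of all genes, 18 of the 38, 9 glycolytic ones, 39, 11 and 4. Both fits have 2 arrays per line.

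Leaving out 1 array at a time gave 23 to 24 called genes of the 38 and 6808 to 7123 of all genes. Scaling by the median, quantile normalization, normexp with offset 50, a constant of 50 before log2, the stricter filter, no filter and the authors' deposited log2 values gave 22 to 28 of the 38. The median of all genes moved by at most 0.05 under any scaling or filter.

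Replicates with the same number correlated in their deviations from the line means at 0.12, 0.11, 0.01 and 0.17, so the numbers were not taken to pair the samples. With the sample-name numbers as a replicate block 23 of the 38 genes were called (6932 of all genes), with the title numbers 21 (5575), and with array sets (replicates 1 and 2, replicates 3 and 4, from a number that arrays share) as a block 26 (7518). Calls not kept were those of Gapdh, Gpi1 and Slc16a3 with the first block and those of Egln2, Gpi1, Ndrg1, Pdk1 and Slc16a3 with the second. Between the lines, deviations correlated at a mean of 0.13 for arrays of the same array set and -0.13 for arrays of different sets. No header names a slide. Signal over background left 2 of the 40 genes, Slc2a3 and Ldhb, without a test.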

Other observations

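The genes below were chosen after their values were seen. Both subunits of the mitochondrial pyruvate carrier, which brings pyruvate to the mitochondrial matrix, were lower in CT26-FL3: Mpc1 fell by 0.71 (SE 0.06) and Mpc2 fell by 0.40 (SE 0.05, adjusted p = 0.000249).

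Among further HIF targets, the stanniocalcin genes went opposite ways, with Stc1 higher by 1.33 and Stc2 lower (change -0.98, SE 0.04, adjusted p = 4.51e-07). The lipoprotein receptor Vldlr rose by 1.17 (SE 0.05) and the transferrin receptor Tfrc fell by 1.03 (SE 0.05). Hilpda, a lipid droplet protein gene, rose by 0.70 (SE 0.07).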
